A study of Mus musculus with 8 samples.

Results

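CpG methylation was examined at 10 homeobox genes that pattern the anterior and middle parts of the embryonic brain, *Otx1*, *Otx2*, *Gbx2*, *Six3*, *Emx1*, *Emx2*, *En1*, *En2*, *Lmx1a* and *Lmx1b*, in neural precursor cells (NPCs) with and without knockdown of *Tet3*. The genes were chosen by name from the 22380 protein-coding genes of the annotation. All CpGs listed between 5 kb upstream of the first transcription start site (TSS) and the end of each gene were taken, which gave 1086 of the 757812 CpGs listed for the series. A coverage of at least 10 calls in each of the 4 oxBS libraries was met by 967 of them, out of 662455 in the series.

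The cells were A2lox.cre mouse ES cells, a line made for inducible transgenes, that were expanded on feeder cells and then differentiated into NPCs. They carried an inducible shRNA, either a non-targeting control (shScr) or one against *Tet3* (shTet3), and both groups received doxycycline at 2 µg/ml for 5 days. TET3 belongs to the enzymes that oxidize 5-methylcytosine (5mC) to 5-hydroxymethylcytosine (5hmC). Each of the 2 replicates per shRNA had a BS library, which reports the sum of 5mC and 5hmC, and an oxBS library, which reports 5mC alone. In this way 8 libraries were compared. By their shared number, the BS and oxBS libraries of a replicate were taken to come from the same DNA. Nothing in the labels says that replicates came from separate cultures or clones. P-values of library means then measure only the spread between these samples. The *q* values of single CpGs come from counts pooled over replicates and do not measure that spread. The labels name each shRNA by its target alone, and no RNA was measured in these libraries, so the knockdown itself could not be checked here.

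Homeobox genes encode transcription factors that bind DNA through a homeodomain, and in the neural tube their expression domains divide the tissue into territories along the head-to-tail axis. OTX2 and GBX2 are known for opposing each other at the boundary of midbrain and hindbrain, where the engrailed genes *En1* and *En2* are expressed. SIX3 acts in the most anterior forebrain and the eye, EMX1 and EMX2 in the cerebral cortex, and the LIM-homeodomain factors LMX1A and LMX1B in midbrain dopaminergic progenitors and the roof plate.

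The sequences shown here are the stretches on which the results turn, read from the forward strand of mm9, with the CG of each CpG called different between shTet3 and shScr in capitals. The first 4 are from stretches where both controls lay above both knockdown libraries, though in the *Lmx1b* block the controls also differed from each other. In the *Lmx1a* exon and the *Otx1* intron, shScr replicate 1 stood well above all other oxBS libraries. The *Otx2* segment holds the CpG with higher 5mC in shTet3, and the *En2* promoter is a CpG-dense stretch without calls.
*Emx2*, upstream, chr19:59531582-59531705: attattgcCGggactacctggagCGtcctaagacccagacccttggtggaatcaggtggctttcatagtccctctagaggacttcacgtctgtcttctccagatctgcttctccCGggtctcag
*En1*, upstream, chr1:122497320-122497437: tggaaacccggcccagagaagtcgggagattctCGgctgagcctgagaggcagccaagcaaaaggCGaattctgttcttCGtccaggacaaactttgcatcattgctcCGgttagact
*Lmx1b*, upstream, chr2:33499392-33499584: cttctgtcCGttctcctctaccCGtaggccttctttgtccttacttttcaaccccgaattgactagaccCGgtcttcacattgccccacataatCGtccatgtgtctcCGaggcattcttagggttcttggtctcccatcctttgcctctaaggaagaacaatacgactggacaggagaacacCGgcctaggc
*Lmx1a*, intron, chr1:169687629-169687754: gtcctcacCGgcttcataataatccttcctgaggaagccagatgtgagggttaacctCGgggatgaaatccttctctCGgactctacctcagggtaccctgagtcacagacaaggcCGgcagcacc
*Lmx1a*, coding exon and its flanks, chr1:169622084-169622326: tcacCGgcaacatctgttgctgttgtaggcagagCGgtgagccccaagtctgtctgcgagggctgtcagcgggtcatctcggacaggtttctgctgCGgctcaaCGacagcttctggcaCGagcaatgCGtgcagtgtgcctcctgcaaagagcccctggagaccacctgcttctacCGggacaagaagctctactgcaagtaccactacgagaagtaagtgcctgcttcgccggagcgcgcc
*Otx1*, intron, chr11:21897881-21898113: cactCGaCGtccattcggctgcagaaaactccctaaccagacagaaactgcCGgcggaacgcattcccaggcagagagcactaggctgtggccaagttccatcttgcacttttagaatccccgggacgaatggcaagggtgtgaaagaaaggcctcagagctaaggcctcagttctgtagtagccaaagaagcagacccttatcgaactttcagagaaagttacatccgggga
*Otx2*, start site, chr14:49285172-49285201: tggaaaacagccggCGccaggcccgccaac
*En2*, promoter, chr5:28492025-28492203: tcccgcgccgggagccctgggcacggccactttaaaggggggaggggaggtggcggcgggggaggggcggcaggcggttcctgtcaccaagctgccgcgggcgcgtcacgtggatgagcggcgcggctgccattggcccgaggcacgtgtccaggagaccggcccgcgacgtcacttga

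Across the series, 5mC was lower in shTet3, and the controls differed from each other. The 8 libraries held 42516767 to 61865967 calls with a median coverage of 43 to 54 per CpG. Over the 662455 covered CpGs, mean 5mC in shScr replicates 1 and 2 was 27.2% and 32.3%, against 22.7% and 22.9% in shTet3. By promoter 5mC alone, neural precursor genes were at 5.99% and 5.36% (*Nes*) to 47.4% and 29.6% (*Pax6*) in shScr, the pluripotency genes *Pou5f1*, *Tcl1* and *Zfp42* between 29.7% and 65.9%, and *Esrrb* at 11.2% and 7.22%. Promoters of genes of other lineages ran from *Sox17*, at 11.4% and 0%, to the muscle gene *Myod1*, at 54.6% and 46.7%. None of 3 neural precursor, 4 pluripotency and 4 other-lineage promoters with enough CpGs passed limma after adjustment. Methylation does not measure expression, so the NPC label could not be checked by these values.

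Taken over all 967 CpGs, the patterning genes carried less 5mC in the knockdown. The shScr replicates had means of 21.0% and 18.5%, against 15% and 15.2% for shTet3. The groups did not overlap, and their means differed by -4.65 percentage points. By the mean over CpGs, promoters were the least and upstream sequences the most methylated part of these genes. Promoter CpGs (1 kb upstream to 0.5 kb downstream of any TSS) had means of 9.76% and 7.65% in shScr against 7.62% and 7.42% in shTet3, body CpGs 22.1% and 19.7% against 15.3% and 15.8%, and upstream CpGs 45.5% and 42.0% against 33.8% and 33.2%. The differences were -1.18 points for 295 promoter CpGs, -5.38 points for 563 body CpGs and -10.3 points for 109 upstream CpGs. The corresponding differences over all protein-coding genes were -1.44, -10.7 and -6.26 points. With 2 libraries against 2, the exact permutation test (two-sided) gives p = 0.33 for each of these differences, which is the smallest value the design allows.

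Single CpGs were called differentially methylated positions (DMPs) by a likelihood ratio test on the counts, requiring *q* < 0.01 and more than 10 points between the pooled levels. At the patterning genes, 95 of 967 CpGs (9.82%) were lower in shTet3 (hypo-DMPs), against 13.9% of all CpGs tested, and 1 was higher (hyper-DMP; 0.103%, against 0.0814%). The hypo-DMPs comprised 4 of 295 promoter CpGs (1.36%, against 2.6% over all genes), 65 of 563 body CpGs (11.5%, against 22.3%) and 26 of 109 upstream CpGs (23.9%, against 12.4%). The bodies of these genes were less methylated to begin with, at 20.9% in shScr against 49.8% over all genes, and their upstream sequences more methylated, at 43.8% against 29.0%. Among CpGs whose level exceeded 40% in the shScr BS libraries, which share the DNA but not the reads of the oxBS test, 74 of 181 (40.9%) were hypo-DMPs at the patterning genes and 36.9% over all CpGs. Among CpGs under 10% in those libraries, 1 of 514 was a hypo-DMP, against 0.182% over all CpGs. A call needs a fall of more than 10 points, so the rule itself leaves little room for calls at such CpGs.

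**Figure D1:**
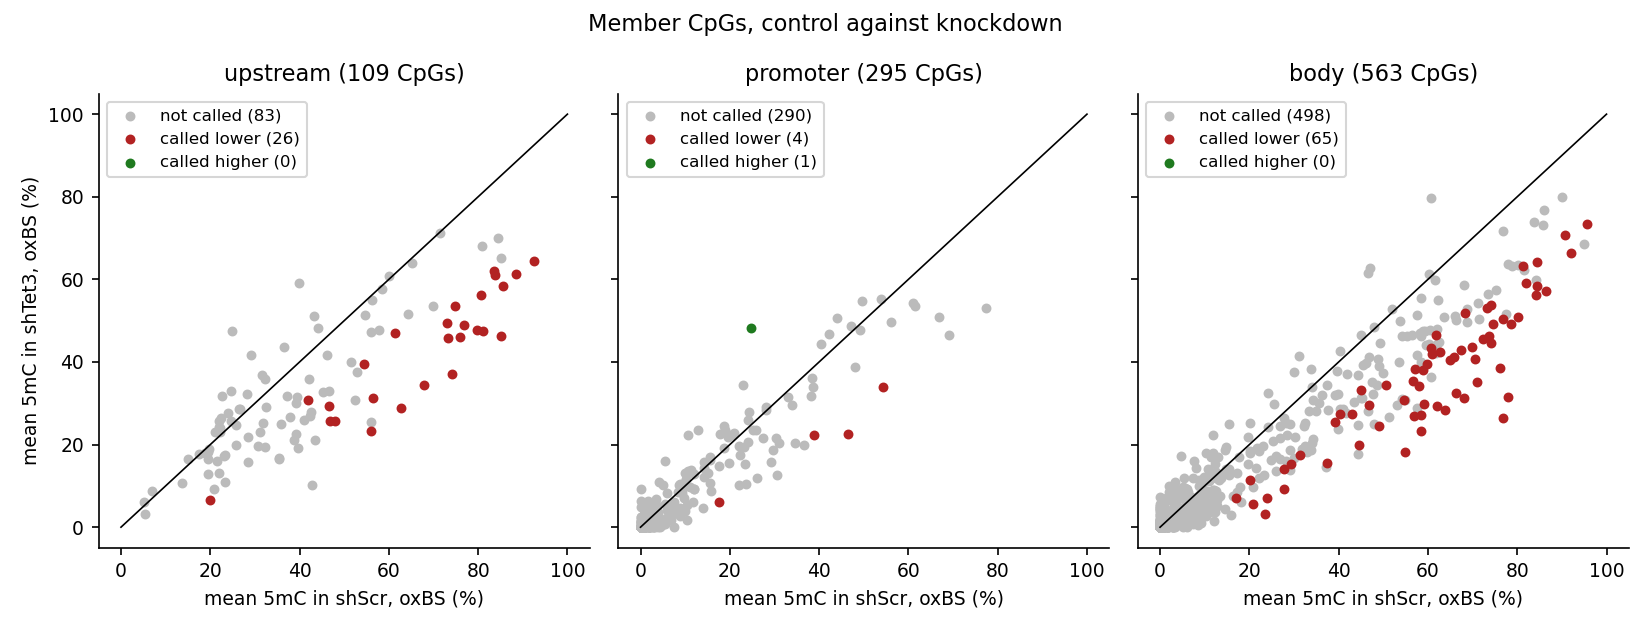
Mean oxBS 5mC (percent) of each patterning-gene CpG in shTet3 (vertical) against shScr (horizontal), for upstream, promoter and body CpGs; colours mark called CpGs and the line marks equality. The 26 upstream and 65 body hypo-DMPs lie below the line mostly at high control levels, and the single hyper-DMP is a promoter CpG.

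The hypo-DMPs had a median pooled difference of -23.4 points, with a range from -53.4 to -10.3. They fell into introns (56), the sequence before the first TSS (28), coding exons (10) and a UTR (1). The groups were separated at 77 of the 95 and overlapped at the other 18. Over all 967 CpGs, both shTet3 replicates were below both controls at 211 and above at 53. Over the 662455 covered CpGs of the series, these counts were 174108 (26.3%) and 13546 (2.04%). The share below was thus smaller at these genes, and the share above larger. The test treats calls as independent and has no term for the spread between replicates. An F test with such a term left 0 CpGs called, here and in the series, with 13 patterning-gene CpGs lower and 0 higher at an unadjusted p below 0.05. Without shScr replicate 1, 60 CpGs were hypo-DMPs (5.96%, against 16.7% of all CpGs), 45 of them among the 95, and without shTet3 replicate 1 there were 56 (5.79%, against 8.72%), 49 of them among the 95. Without shScr replicate 2 the order of the shares turned around, with 87 hypo-DMPs (8.74%) against 5.79% of all CpGs, so whether these genes lay below or above the series depended on which control was used.

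The calls were uneven among the genes. *Lmx1a* and *Lmx1b* together held 61 of the 95 hypo-DMPs at 293 CpGs (20.8%), and the other 8 genes held 34 at 674 CpGs (5.04%). The share over all CpGs of the series was 13.9%. *Lmx1a* also had more methylated CpGs to begin with. Those above 40% in the shScr oxBS libraries were 48 of 78 in *Lmx1a* and 62 of 215 in *Lmx1b*. They were 203 of 967 over all 10 genes and 37.1% of all CpGs of the series. The share in *Lmx1b* was near those in *Otx1* (20 of 64) and *Otx2* (8 of 28), which held 3 and 1 hypo-DMPs. These levels come from libraries that were also used for the calls. *En1* followed with 12, *Six3* had 6, *Emx2* 5, *Otx1*, *Gbx2* and *Emx1* 3 each, and *Otx2* and *En2* 1 each.

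**Figure D2:**
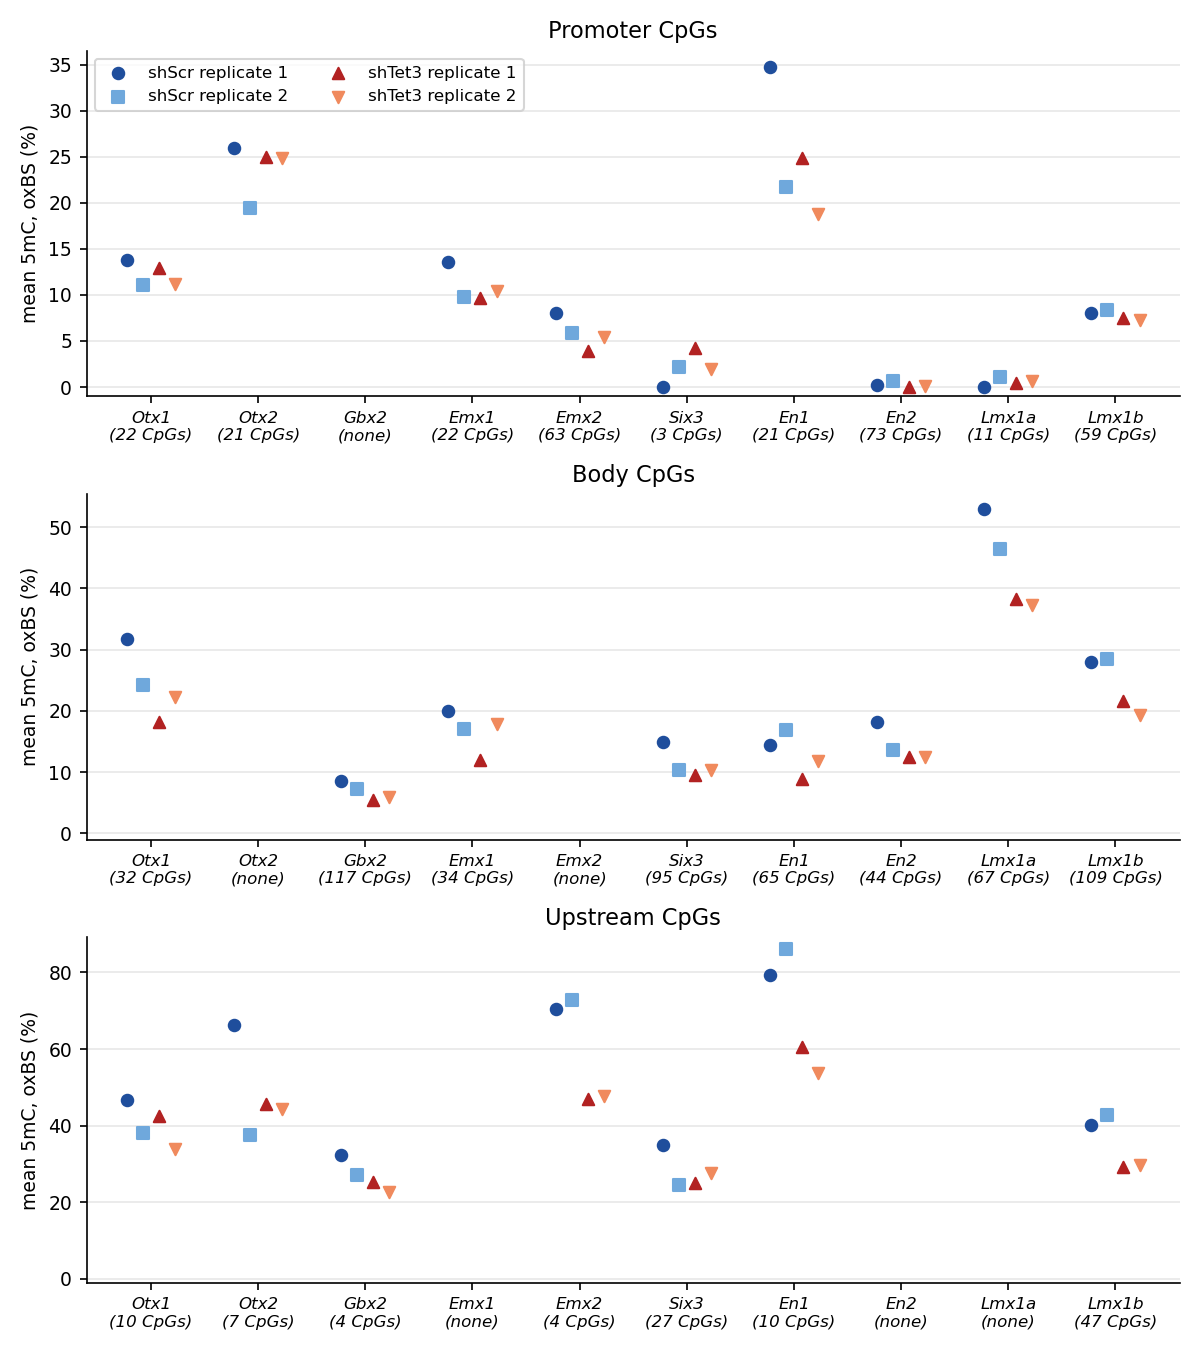
Mean oxBS 5mC (percent) over the promoter, body and upstream CpGs of each gene, 1 point per library, with the number of CpGs under each gene. The upstream points of *En1* and *Emx2* separate shScr from shTet3 by 25.5 and 24.2 points on average, while the promoters of *En2* and *Lmx1a* lie near 0 in all 4 libraries.

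*Otx1* and *Otx2*, needed for the forebrain and midbrain, are on chr11:21894767-21902900 and chr14:49277354-49287319, both on the minus strand. The *Otx1* promoter was at 13.8% and 11% in shScr against 12.9% and 11.1% in shTet3 over 22 CpGs, and its 32 body CpGs at 31.7% and 24.3% against 18.1% and 22.2%. The body groups did not overlap, but the control libraries were 7.42 points apart. All 3 *Otx1* hypo-DMPs sat in the intron shown above, which had a mean of 67.4% in shScr replicate 1, 32.4% in shScr replicate 2 and 29.7% and 29.8% in shTet3. The CpG at position 21897885, 3691 bases after the nearest TSS, was at 84.8% and 42.9% against 32.0% and 25% (pooled difference -38.3 points, *q* = 2.1e-07). No *Otx1* CpG was called lower when shScr replicate 1 was left out.

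The promoters of *Otx2*, which has 7 annotated TSSs, held the only hyper-DMP of the patterning genes. It lies at position 49285186, 10 bases after a TSS, in a UTR. It was at 30.8% and 18.9% in shScr against 54.9% and 41.7% in shTet3 (pooled difference 24.8 points, *q* = 0.0013), with 48 to 71 calls per library. The control intervals were 19.9% to 44.3% and 10.6% to 31.4%, and those of the knockdown 43.4% to 66.0% and 28.8% to 55.7% (95%, Wilson; counting error only), so the nearest replicates overlap within counting error. In the BS libraries the same CpG was at 52.9% and 25.4% against 48.6% and 41.5%, with no call (pooled difference 5.18 points), and it was not called in oxBS without shScr replicate 2 or without shTet3 replicate 1. None of its neighbours was called. The nearest, at 49285183, was at 30% and 16% in shScr against 39.7% and 29.2% in shTet3, with overlapping groups, and the CpG 1 base after the TSS was at 65.4% and 15.4% against 40.8% and 48.0%. The 9 CpGs of the stretch averaged 32.3% and 23.0% against 32.9% and 31.3%.

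Over all 21 promoter CpGs, *Otx2* was at 26% and 19.4% in shScr against 24.9% and 24.9% in shTet3, so that the knockdown libraries lay between the controls. As in the *Otx1* intron, shScr replicate 1 stood above the other libraries at the 7 upstream CpGs of *Otx2*. They averaged 66.2% in shScr replicate 1, 37.7% in replicate 2, and 45.6% and 44.4% in shTet3, which lay between the controls, whereas in the *Otx1* intron it lay below both. The 1 *Otx2* hypo-DMP there was lost without shScr replicate 1 and without shTet3 replicate 1.

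*Gbx2*, which acts in the anterior hindbrain, is on chr1:91824537-91829865 (minus strand). No promoter CpG of it was listed. Its body was mostly unmethylated, at 8.54% and 7.24% in shScr against 5.52% and 5.90% in shTet3 over 117 CpGs, with a run of 101 CpGs between 1.1% and 2.2% in the oxBS libraries. The 3 hypo-DMPs stood at its methylated edges. Near the end of the gene, 7 coding-exon CpGs averaged 62.1% and 57.4% in shScr against 38.3% and 45.7% in shTet3, and the one at position 91825401 was at 67.5% and 65.1% against 28.3% and 36.5% (*q* = 8.5e-05). This CpG was called whichever oxBS library was left out. In the BS libraries, though, shTet3 replicate 1 reached 64.6% over the same 7 CpGs, inside the control values of 62.6% and 66.3%.

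*Six3*, a forebrain and eye gene, is on chr17:86012948-86031153 (plus strand). Its 3 promoter CpGs with sufficient coverage were at 0% and 2.22% in shScr against 4.27% and 1.96% in shTet3, and its 95 body CpGs at 14.9% and 10.4% against 9.54% and 10.4%. The body means of shScr replicate 2 and shTet3 replicate 2 were thus nearly equal. Within this body, 5 hypo-DMPs clustered in an intron. The CpG at 86014753, 1805 bases after the TSS, was at 23.0% and 24.1% in shScr against 1.69% and 4.71% in shTet3 (*q* = 4.5e-08). It was called with each oxBS library left out in turn, but the BS libraries, at 14.3% and 14.5% against 7.55% and 8.33%, gave no call there.

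*Emx1* and *Emx2*, cortical homeobox genes, are on chr6:85137432-85154456 and chr19:59533180-59539847 (both plus strand). The *Emx1* promoter was at 13.5% and 9.75% in shScr against 9.63% and 10.4% in shTet3 over 22 CpGs. Its 2 hypo-DMPs were among 4 methylated CpGs before the TSS, where shScr replicate 1 stood alone at 66.9% and the other libraries were at 38.4%, 40.7% and 40%. The *Emx1* body had means of 20.1% and 17.1% against 12.1% and 17.9%, which overlap. Within it, 5 intron CpGs averaged 46.2% and 36.5% in shScr against 27.2% and 28.3% in shTet3, and the groups were separated in BS too. The 1 body hypo-DMP there, at 85139836, was at 64% and 52.8% against 28.7% and 25.6%, and was also called in BS. Its oxBS call was lost without shScr replicate 2 and without shTet3 replicate 1.

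Among the regions of the 10 genes, *Emx2* upstream had the smallest unadjusted p (limma, 0.000648). The 4 covered upstream CpGs, at -1590 to -1484 bases from the TSS, averaged 70.5% and 72.7% in shScr against 46.9% and 47.8% in shTet3, a difference of -24.2 ± 1.32 points (limma standard error). The controls differed by little over these CpGs, and 3 of the 4 were hypo-DMPs. Without shScr replicate 2, 6 CpGs met the coverage minimum and the difference was -14.9 points. Over the same CpGs the BS libraries were at 77.3% and 75.5% against 48.8% and 39.9%. Only 4 CpGs carry this value, with as few as 24 calls in a library, and no single CpG of the 3 kept its call under every omission of a library. The *Emx2* promoter, with 63 CpGs, was low throughout, at 8.04% and 5.90% against 3.87% and 5.48%.

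*En1* and *En2*, expressed at the midbrain-hindbrain boundary, are on chr1:122498995-122505873 and chr5:28492236-28500152 (plus strand). They differed in where they were methylated. The 10 upstream CpGs of *En1* averaged 79.2% and 86.0% in shScr against 60.5% and 53.8% in shTet3, and 7 of them were hypo-DMPs. The difference was -25.5 ± 4.2 points, and the BS libraries gave -21.3 points. The CpG at 122497399, in the upstream sequence shown above, was at 83.3% and 87.0% against 54.0% and 38.8% (*q* = 2.8e-08).

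A similar separation was present inside *En1*. In an intron, 7 CpGs averaged 59.9% and 70.3% in shScr against 32.9% and 49.6% in shTet3, and 5 of them were hypo-DMPs. The CpG at 122501592, 2597 bases after the TSS, was at 75.5% and 76.7% against 29.4% and 47.5% (*q* = 2.3e-09). Both of these *En1* CpGs were called under each omission of an oxBS library.

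The *En1* promoter was different. Its 21 CpGs averaged 34.8% and 21.7% in shScr against 24.9% and 18.7% in shTet3, with overlapping groups and 0 hypo-DMPs in oxBS. The BS libraries, at 41.0% and 28.4% against 22.9% and 18.0%, gave 7 hypo-DMPs and a difference of -14.3 points, against -6.45 points in oxBS. Near the TSS itself, 16 CpGs were at 24.8% in shScr replicate 1 and between 10.3% and 14.4% in the other 3 oxBS libraries.

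In *En2*, 73 promoter CpGs were at 0.24% and 0.682% in shScr against 0.0399% and 0.123% in shTet3, and 0 were called in either direction. No upstream CpG of *En2* was listed. The 44 body CpGs averaged 18.2% and 13.5% against 12.4% and 12.4%, and its 1 hypo-DMP, in an intron, was called only with all libraries or without shScr replicate 2.

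**Figure D3:**
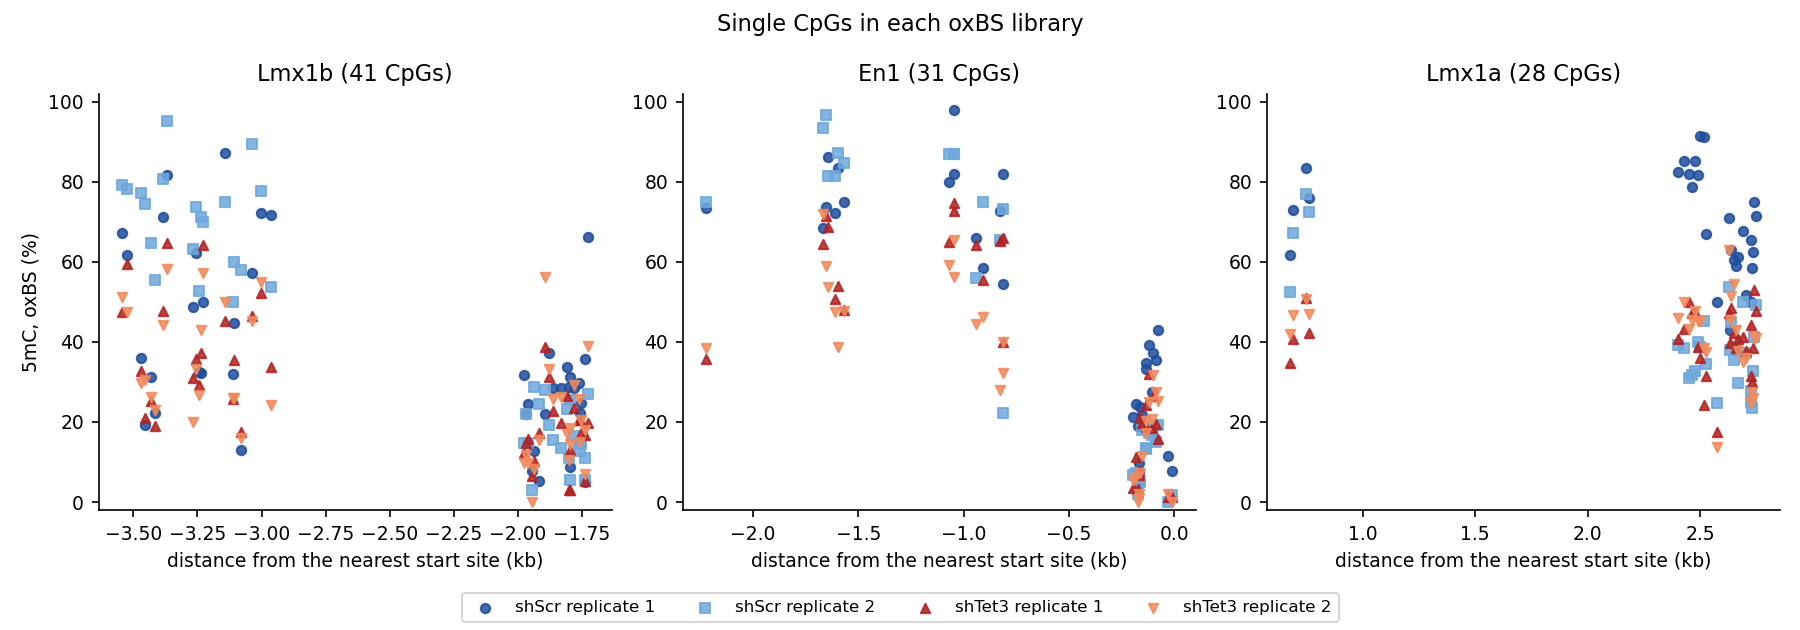
oxBS 5mC (percent) of single CpGs in the 4 libraries against the distance to the nearest start site (kb), for the sequence upstream of *Lmx1b* and *En1* and the beginning of *Lmx1a*. The shTet3 points lie below most control points in the parts of the *Lmx1b* and *En1* panels farther from the start site. In the parts nearer to it the groups overlap. In the second cluster of *Lmx1a* the points of shScr replicate 1 stand above those of the other 3 libraries.

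*Lmx1a* (chr1:169619370-169778872, plus strand) combined an unmethylated promoter with a methylated body. The 11 promoter CpGs were at 0% and 1.15% in shScr against 0.415% and 0.66% in shTet3. The 67 body CpGs averaged 53.1% and 46.4% in shScr against 38.3% and 37.3% in shTet3, and 24 of them were hypo-DMPs. The limma difference was -12 ± 3.46 points, and the BS libraries, at 50.7% and 50.1% against 36.4% and 35.2%, gave -14.6 points.

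Within *Lmx1a*, stretches differed in how the controls stood to each other. In the far intron shown above, 68007 bases after the TSS, both controls were high (69.9% and 76.9%) and both shTet3 libraries lower (46.7% and 41.9%), and all 4 CpGs were hypo-DMPs. A stretch 718 bases after a TSS was similar, at 73.5% and 67.2% against 42.1% and 46.5%. In the stretch around the coding exon, by contrast, 24 CpGs averaged 68.9% in shScr replicate 1, 36.8% in replicate 2 and 39.8% and 40.1% in shTet3. Its CpG at 169622203 was at 91.1% and 45.2% against 24.1% and 38.5% (*q* = 2.6e-14), and its call was lost without shScr replicate 1. In another stretch, of 5 intron CpGs, replicate 2 was the higher control, at 47.8% and 76.3%, with shTet3 between them at 58.1% and 60.5%. Leaving out shScr replicate 1 gave 11 hypo-DMPs in *Lmx1a* in place of 24, all of them among the 24.

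*Lmx1b* (chr2:33416485-33496031, minus strand) had the most hypo-DMPs, 37 of 215 CpGs. Its promoter was at 8.09% and 8.37% in shScr against 7.50% and 7.30% in shTet3 over 59 CpGs and held no DMP. The 109 body CpGs averaged 28.1% and 28.4% against 21.7% and 19.4%, and 23 of them were hypo-DMPs. The largest single difference was at 33463721, in an intron, at 95% and 58.8% against 36.8% and 16.0% (pooled difference -53.4 points, *q* = 2.4e-05), with only 17 to 25 calls per library. In BS it was at 63.9% and 86.7% against 48.4% and 52.9%, with no call (pooled difference -20.6 points), and the oxBS call was lost without shScr replicate 1 or without shTet3 replicate 2.

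Upstream of *Lmx1b*, 47 CpGs averaged 40.2% and 42.7% in shScr against 29.1% and 29.8% in shTet3, a difference of -12 ± 1.41 points. The 14 hypo-DMPs there lay chiefly in 1 block of 17 CpGs around position -3235 relative to the TSS, with 10 of them. The block was at 50.0% and 71.1% in shScr against 39.7% and 38.4% in shTet3, and at 51.2% and 71.7% against 41.1% and 40.9% in the BS libraries. Here shScr replicate 2 was the higher control, the reverse of the *Lmx1a* exon. The CpG of the block nearest to the TSS, at 33498995, was at 71.7% and 53.6% against 33.6% and 24.3% (*q* = 2e-14) with 84 to 226 calls, and was called whichever library was left out.

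Region means were then tested with limma on all genes with at least 3 covered CpGs in a region. After adjustment over all regions, 0 of 9 promoters, 0 of 8 bodies and 0 of 7 upstream regions of the patterning genes passed, and 0 passed in the whole series (0% of 12921 promoters, 10526 bodies and 3126 upstream regions). At an unadjusted p below 0.05, the *Lmx1b* promoter, the *Lmx1a* and *Lmx1b* bodies and the *Emx2*, *Lmx1b* and *En1* upstream regions were lower in shTet3. The shares of all regions that were lower at this threshold were 7.78% of promoters, 27.1% of bodies and 15.6% of upstream regions. Among these 6 regions, the smallest adjusted p-values were 0.183 for both *Lmx1* bodies, and 0.215, 0.239 and 0.26 for the *Emx2*, *Lmx1b* and *En1* upstream regions (limma, Benjamini-Hochberg).

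The median difference was -0.38 points over the patterning-gene promoters, -4.50 over bodies and -6.92 over upstream regions, and -0.176, -12.7 and -9.43 over all genes. The median shScr levels of these regions were 8.23%, 17.2% and 42.4%, against 0.75%, 65.9% and 51.6% over all genes. Of the 24 regions, 0 were higher in both shTet3 replicates than in both controls, against 6.46% of promoters, 0.798% of bodies and 2.14% of upstream regions over all genes. Both shTet3 replicates were below both controls at 3 of 9 promoters (33.3%, against 31.3% of all genes), 7 of 8 bodies (87.5%, against 72.4%) and 4 of 7 upstream regions (57.1%, against 52.9%).

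The controls differed at these genes in the opposite direction to the series as a whole. At 120 of 927 CpGs (12.9%), shScr replicate 1 exceeded replicate 2 by more than 10 points in both oxBS and BS, and at 35 (3.78%) replicate 2 exceeded replicate 1. Over all CpGs of the series the shares were 1.82% and 14.4%, so the order of both shares was the opposite there. The mean difference between the controls was 2.39 points in oxBS and 3.18 in BS at these genes, against -4.98 and -4.83 over all CpGs. The shTet3 replicates differed in this way at 18 (1.79%) and 13 (1.3%) of 1003 CpGs, against 3.67% and 4.48% of all CpGs.

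**Figure D4:**
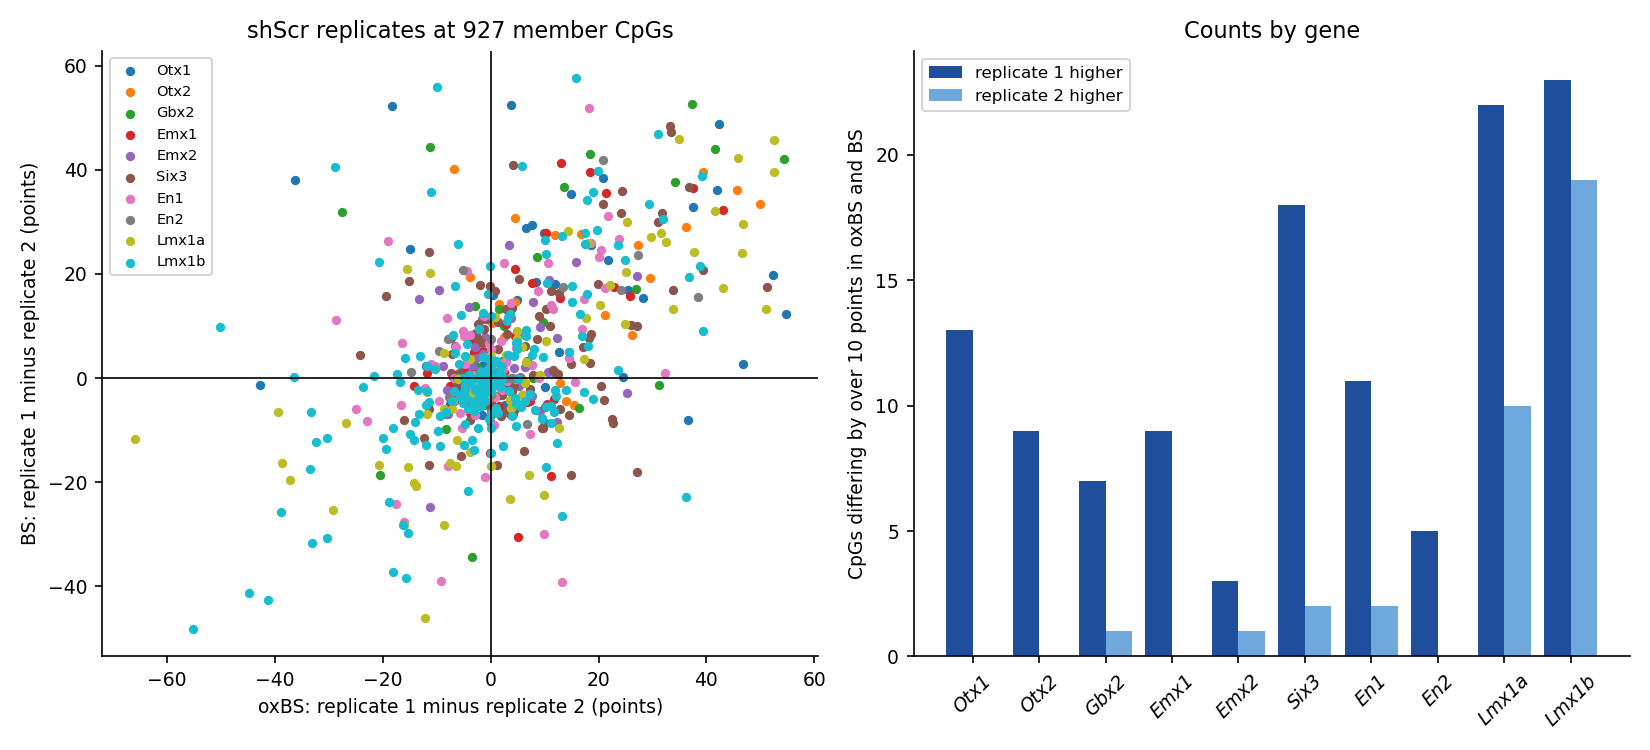
Left, difference between shScr replicates 1 and 2 (percentage points) at 927 CpGs in BS (vertical) against oxBS (horizontal), coloured by gene; right, the number of CpGs per gene that differed by over 10 points in both kinds of library. In all 10 genes more CpGs are higher in replicate 1 than in replicate 2, in total 120 against 35.

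Over the 927 CpGs without regard to size, replicate 1 was higher in oxBS at 38.7% and lower at 37.0%. Past 10 points in both kinds of library, all 10 genes had more CpGs with the higher value in replicate 1, from 3 against 1 in *Emx2* to 22 against 10 in *Lmx1a* and 23 against 19 in *Lmx1b*. *Otx1*, *Otx2*, *Emx1* and *En2* had 13, 9, 9 and 5 such CpGs and 0 in the opposite class. Of the 95 hypo-DMPs, 28 were among the CpGs with the higher replicate 1 and 11 among those with the higher replicate 2. What distinguishes these 2 control libraries was not tested. CpG by CpG, the replicate differences in oxBS and BS correlated with r = 0.531 over the 927 CpGs, as a description, since neighbouring CpGs share reads and both libraries of a replicate share DNA.

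Nearby CpGs were joined into stretches of at least 4 CpGs with gaps of at most 200 bp, which gave 54 stretches, 38 of them above 10% in shScr. Both shTet3 replicates were below both controls at 21 of the 38 in oxBS, and at 15 also in BS. At the other 17 the groups overlapped in oxBS. The choice of stretches by their shScr level leaves out low ones such as an *Emx1* UTR stretch, at 2.06% and 0.738% in shScr against 2.15% and 4.68% in shTet3, so the absence of a stretch with both shTet3 replicates higher is partly set by that choice. In 10 stretches shScr replicate 1 was more than 10 points above replicate 2 in both kinds of library, and at 8 of these the shTet3 values overlapped the controls. In 5 stretches the order of the controls was reversed.

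**Figure D5:**
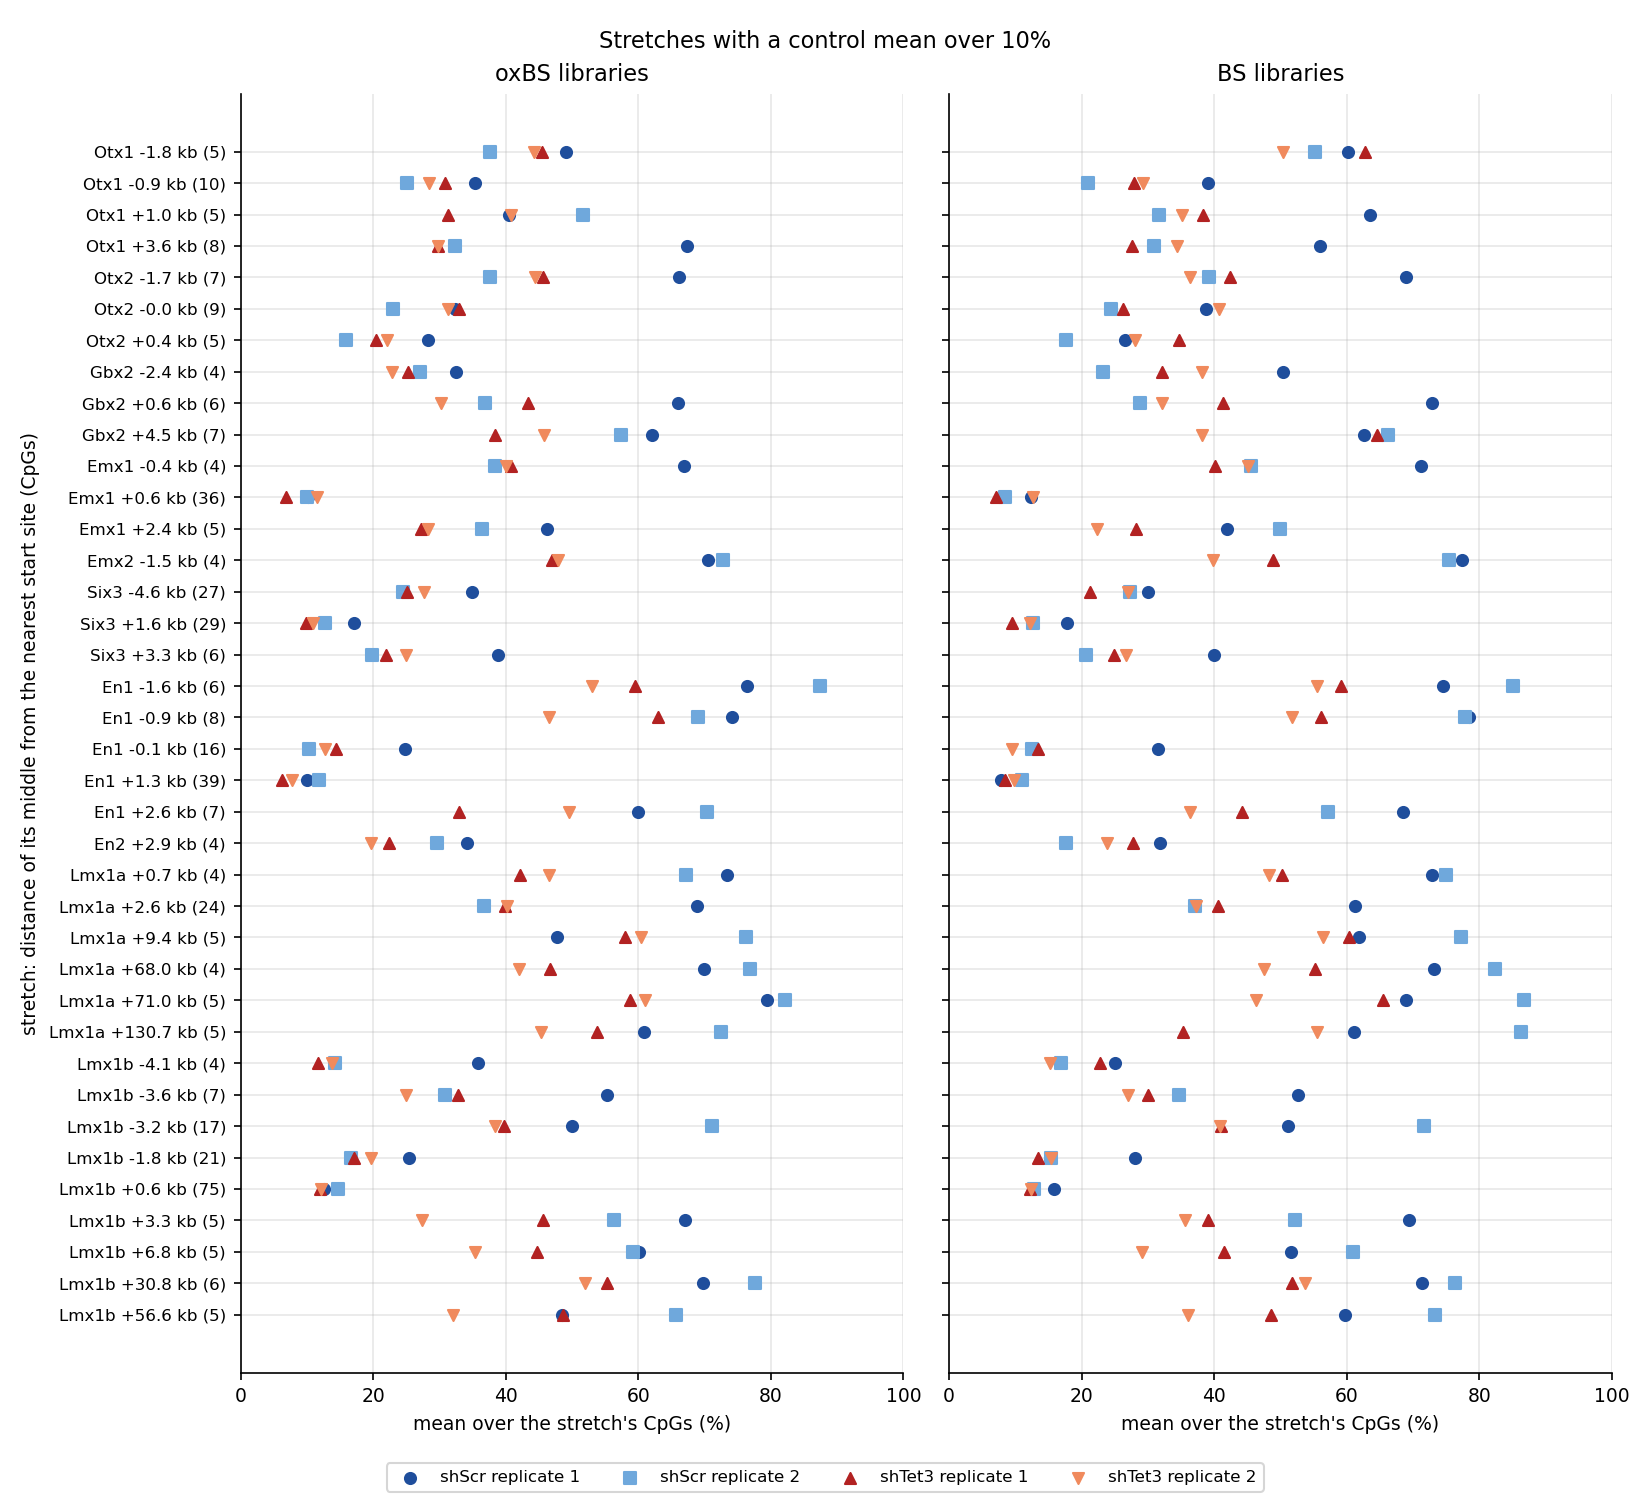
Mean level (percent) over each of 38 stretches with more than 10% in shScr, in the 4 oxBS (left) and 4 BS libraries (right), ordered by gene and by the distance of the stretch from the nearest start site, with its number of CpGs in brackets. Upstream of *En1* and *Emx2* both controls lie above both shTet3 libraries, whereas in the *Otx1* intron, *Otx2* upstream and the long *Lmx1a* stretch shScr replicate 1 stands alone.

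The BS libraries, which read 5mC and 5hmC together, gave 93 hypo-DMPs and 2 hyper-DMPs at 961 CpGs (9.68% lower, against 13.8% of all CpGs, and 0.0621% of all CpGs higher). Of the 90 oxBS hypo-DMPs with sufficient BS coverage, 87 were also lower in BS, 52 were called there, and at 56 both shTet3 replicates lay below both controls. These CpGs were chosen by their oxBS values, and both kinds of library share the DNA of each replicate. The overlap is therefore not an independent check, and differences between the controls recur in BS. The 2 BS hyper-DMPs were coding-exon CpGs of *Emx1* and *En1*. The *Emx1* CpG was at 10.6% and 9.73% in shScr against 20.7% and 30.6% in shTet3, and the *En1* CpG at 2.70% and 2.67% against 9.68% and 21.2%. Neither was called in oxBS. The difference between the shTet3 effects in oxBS and BS was called at 0 of 915 patterning-gene CpGs, against 0.194% of all CpGs, by an interaction term in the same model.

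Few CpGs differed between BS and oxBS, the measure of 5hmC. BS exceeded oxBS at 1 of 927 CpGs in shScr and fell below it at 0, against 0.33% and 0.17% of all CpGs. In shTet3, BS was above oxBS at 2 of 1003 CpGs and below it at 1, against 0.0239% and 0.0141%. The shScr CpG, at position 59534398 in an *Emx2* intron, was at 2.22% and 6.25% in oxBS and 37.0% and 23.3% in BS. In shTet3 the same CpG was at 6.73% and 14.9% in oxBS and 10.9% and 12% in BS. Averaged over 915 CpGs, BS minus oxBS was 0.425 ± 0.536 points in shScr and 0.374 ± 0.427 in shTet3 (SD, n = 2), no larger than the spread between replicates.

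CpG density went with the level at these genes. CpGs under 10% in shScr had a median of 22 CpGs in the 200 bp around them and those over 40% had 8. The hypo-DMPs also had a median of 8, and the CpGs without a call 19. Across the 967 CpGs the density and the shScr level had a Pearson r of -0.71 and a Spearman rho of -0.762, given as a description because CpGs of a fragment share reads. The sequences shown above illustrate this: the unmethylated *En2* promoter holds 22 CG in 179 bases, and the upstream sequence of *Emx2* holds 4 in 124.

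Some CpGs are shared with other annotated genes or their promoters, namely 106 of 123 in *Gbx2*, 113 of 243 in *Lmx1b*, 82 of 154 in *Six3*, 54 of 75 in *Emx2* and 8 of 85 in *Otx1*. Bisulfite reads cannot assign methylation to either gene. With these CpGs left out, 72 hypo-DMPs remained and the body difference was -6.92 points. Of the 109 upstream CpGs 27 were then left, with none for *Emx2*, *Six3* and *Lmx1b*.

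A wider list of 24 genes for anterior, midbrain and boundary identity was examined beside them. Of these, 22 had promoters with enough CpGs, and both shTet3 replicates lay below both controls at 7 and above at 0, against 31.3% and 6.46% of all promoters. None passed limma after adjustment, and 2 were lower at an unadjusted p below 0.05. The median promoter difference was -2.24 points, against -0.176 over all genes. These promoters were more methylated to begin with, at a median shScr level of 10.9% against 0.75% over all genes. Among the promoters with the largest differences were those of *Barhl1*, at 61.2% and 61.5% in shScr against 46.5% and 45% in shTet3, and *Six6*, at 39.4% and 21.0% against 13.3% and 20.5%. *Barhl1* encodes a homeodomain factor, and its controls were close to each other, whereas those of *Six6* were not. The smallest were at *Gbx1*, *Pitx3* and *Irx3*, with differences of 0.083, 0.114 and -0.117 points.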

How the data were processed

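oxRRBS libraries of NPCs were analysed, with 2 replicates of shScr and shTet3 in BS and oxBS, grouped by their titles. Per the methods and the submitters' processing notes, the authors trimmed reads with Trim Galore, aligned them to mm9 with Bismark and used methylKit; versions are not given in the sources used here. The authors deposited, per CpG, a raw count of calls as the coverage, with C calls and T calls each as a percent of it. All 8 files list the same CpGs with a coverage of at least 5, so a minimum had been applied before deposit.

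Methylated counts were recovered from percent and coverage. CpGs needed 10 or more calls in every library of a comparison, and levels are unweighted means over CpGs. DMPs came from a logistic model of the counts, tested by its likelihood ratio (Python 3.11.15, SciPy 1.17.1), Benjamini-Hochberg adjustment over all CpGs, *q* below 0.01 and a pooled difference over 10 points; methylKit itself was not run. BS against oxBS and the interaction used the same model. Region means were compared with limma 3.58.1 (R 4.3.3) on the percent scale, over regions with at least 3 CpGs. Procedures were tested on simulated data. For the per-CpG tests these held counting error only, so they cannot show how the calls hold where replicates differ. Genes and TSSs are those of GENCODE vM1, of all transcripts. Promoters run from 1 kb upstream to 0.5 kb downstream of each TSS, upstream CpGs lie within 5 kb before the first TSS, and the rest is body. CpG density was counted in mm9 within 100 bp on each side.

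The genes, the wider list, the markers and the tests were chosen with earlier results of these data known. The 24 named CpGs are every oxBS hyper-DMP and, per gene, up to 3 hypo-DMPs. The latter were ranked by pooled difference among those with both shTet3 replicates below both controls. Values are given in the text for only a part of the 24, and this part holds most of those called whichever oxBS library was left out. The BS calls, the CpGs with BS above oxBS, the *Otx2* neighbours and the stretches were chosen for mention after their values were seen. So were the bodies and upstream regions named from the wider list. A BS and an oxBS library of 1 number were taken to share their DNA and treated as a pair, which the titles do not state. Their deviations correlated with r = 0.517 in shScr and 0.26 in shTet3. PCR reads carried no molecular identifiers and are not independent molecules. The likelihood ratio tests and Wilson intervals (95%) cover counting error only, whereas the F test and limma use the spread between replicates. Alternatives included other coverage minimums, Fisher's exact test, an overdispersion term, a replicate block and omission of each library. Gene expression was not analysed here, and *Sox1*, a planned marker, has no entry in the annotation used. Values of some genes of the wider list are not reported here.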

Additional observations from a re-analysis of the deposited data

How the results depend on the processing

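The 95 hypo-DMPs ranged from 72 to 97 under other coverage minimums, Fisher's exact test, the replicate block, non-overlapping replicates and omission of shared CpGs, and the overdispersion F test gave 0. Leaving out each library gave 56 to 87. The 1 hyper-DMP became 0 under the F test and 1 to 3 with a library left out. The promoter difference of -1.18 points was -2.30 with promoters from 2 kb upstream to 1 kb downstream, and -2.23 to -0.196 with a library left out. The body difference of -5.38 points was -6.92 without shared CpGs and -6.78 to -3.98 with a library left out, and the upstream difference of -10.3 points was -11.3 to -7.82. The direction of all 3 differences was kept under every alternative tried. The count of region means past limma was 0 under each alternative, with smallest adjusted p-values among the members between 0.144 and 1 for promoters, 0.0922 and 0.552 for bodies, and 0.0799 and 0.723 for upstream regions.

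shScr and shTet3 share only replicate numbers: deviations of same-numbered libraries correlated with r = -0.0409 in oxBS and -0.0343 in BS. With the replicate block, 97 hypo-DMPs and 1 hyper-DMP were called and limma again gave 0 regions. For BS against oxBS, where libraries of 1 number were taken as pairs, the block left the counts at 1 in shScr and 2 in shTet3. Of 24 gene regions, the sign of the difference changed in 4 without shScr replicate 1, 2 without shScr replicate 2, 1 without shTet3 replicate 1, 2 without shTet3 replicate 2 and 1 in BS. Among them, *Otx2* upstream was 7.33 points higher in shTet3 without shScr replicate 1. Of the 24 named CpGs, 6 were called with every omission. Coverage limits the single CpGs with few calls, and 2 replicates limit every test of means.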

Other observations

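Beyond the promoters, the wider list of anterior, midbrain and boundary genes was lower in both shTet3 replicates than in both controls at 11 of 20 bodies and 6 of 13 upstream regions, and higher at 0. The shares over all genes were 72.4% and 52.9% lower, and 0.798% and 2.14% higher. The median difference of the list was -3.53 points over bodies, against -12.7 over all genes, with median shScr levels of 24.9% and 65.9%. Over upstream regions it was -9.43 points, against -9.43 over all genes. *Pax2* and *Pax5* had the largest body differences of the list. The body of *Pax2*, a paired-box gene of the midbrain-hindbrain boundary, was at 46.4% and 48.5% in shScr against 35.6% and 32.7% in shTet3 over 101 CpGs. That of *Pax5*, its relative, was at 33.0% and 41.8% against 25.9% and 23.9% over 106 CpGs. Upstream of *Barhl1*, 26 CpGs were at 35.1% and 35.3% against 24% and 21.6%. None of these passed limma after adjustment, with adjusted p-values of 0.183, 0.186 and 0.221.

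Differences between the controls were present in the wider list too. The *Lhx5* body was at 36.7% and 17.3% in shScr against 21.1% and 18.1% in shTet3. Replicate 1 had the higher level at 16 of 22 promoters, 11 of 20 bodies and 8 of 13 upstream regions of the list, and at 24.6%, 9.08% and 17.4% of the promoters, bodies and upstream regions of all genes.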
